A study of Mus musculus with 4 samples.

Results

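The Kruppel-like factors described here are 10 mouse genes, Klf2, Klf3, Klf4, Klf5, Klf6, Klf7, Klf9, Klf10, Klf13 and Klf16, out of 18193 genes measured on 4 arrays. They were taken by name, as every probe set that the platform annotation assigns to exactly one of these symbols, which gave 34 probe sets. A probe set is a group of short array sequences that together measure a transcript, and the brightest probe set of a gene, by its mean over the 4 arrays, stands for the gene. The groups compared were 2 samples of epiblast-like tissue at day 3 and 2 samples of mouse embryonic stem (ES) cells at day 0, each day numbered replicate 1 and 2. The day 0 samples are the starting ES cells. The day 3 tissue came from such cells put through SFEBq, a serum-free floating culture in which dissociated cells quickly re-aggregate. No genetic change or added agent, and no name for the cell line, is given for either group in the sources used here. Nothing in the labels says that replicates were separate cultures, so p-values reflect the spread between these particular samples alone, which may be technical. Each sample is bulk tissue, in which fewer cells of a type and less RNA per cell cannot be told apart, and the aggregation culture and its medium cannot be told apart from the change of cell state.

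Kruppel-like factors are transcription factors that bind GC-rich and CACCC-type DNA through similar zinc fingers near the carboxyl end of the protein, while the rest of the protein differs and recruits either activators or repressors. Klf2, Klf4 and Klf5 are known in mouse ES cells as partly redundant members of the naive pluripotency network, the state of the pre-implantation embryo. Klf3 acts mostly as a repressor through the co-repressor CtBP, and Klf9, Klf10, Klf13 and Klf16 belong to the branch that can bind the Sin3a co-repressor.

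Upstream windows of 250 bases, ending at an annotated transcription start, were read from RefSeq for 7 of the 10 genes (build GRCm38.p6), and Klf5, Klf10 and Klf16 had none in the table. The windows of 4 genes are shown because, among the genes with a window, they belong to the pair that fell most, a bright gene that fell less, and the gene that rose most. Capitals mark the GC box GGGCGG, the CACCC box CACCC and the Stat-type motif TTCNNNGAA, each searched on both strands, and no 2 motifs of different kinds overlapped in these windows.
Klf4, chr4:55532476-55532725, minus strand: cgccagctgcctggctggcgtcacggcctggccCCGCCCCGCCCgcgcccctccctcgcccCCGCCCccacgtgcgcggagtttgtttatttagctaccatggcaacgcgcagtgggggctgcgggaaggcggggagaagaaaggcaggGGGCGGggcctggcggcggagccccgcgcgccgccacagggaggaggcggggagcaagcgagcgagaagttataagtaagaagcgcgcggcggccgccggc
Klf2, chr8:72318812-72319061, plus strand: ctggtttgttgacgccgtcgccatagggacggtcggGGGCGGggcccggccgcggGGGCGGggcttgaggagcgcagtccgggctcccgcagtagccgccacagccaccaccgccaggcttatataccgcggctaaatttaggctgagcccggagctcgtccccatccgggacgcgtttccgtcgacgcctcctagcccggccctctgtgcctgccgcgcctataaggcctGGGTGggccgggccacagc
Klf9, chr19:23140976-23141225, plus strand: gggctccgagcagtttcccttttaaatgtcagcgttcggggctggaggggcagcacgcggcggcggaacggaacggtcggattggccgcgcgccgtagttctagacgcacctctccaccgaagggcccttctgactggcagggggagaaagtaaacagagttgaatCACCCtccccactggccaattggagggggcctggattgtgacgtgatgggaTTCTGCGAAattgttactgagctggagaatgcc
Klf6, chr13:5861239-5861488, plus strand: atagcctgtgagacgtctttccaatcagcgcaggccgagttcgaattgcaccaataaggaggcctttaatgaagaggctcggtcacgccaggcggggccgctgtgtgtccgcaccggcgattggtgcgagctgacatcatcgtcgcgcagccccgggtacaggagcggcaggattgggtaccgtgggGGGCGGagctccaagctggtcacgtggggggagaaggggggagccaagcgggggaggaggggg

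The Klf4 window held 4 GC boxes, a pair of which share a base, and no CACCC box. The Klf2 window held 2 GC boxes and 1 CACCC box, that of Klf9 no GC box, 1 CACCC box and 1 Stat-type motif, and that of Klf6 1 GC box. The Klf3 window, not printed, held 6 GC boxes and 5 CACCC boxes. A GC box was present in 6 of the 7 windows, against 32.7% of 32851 windows of the same length over all genes, and a CACCC box in 5 of 7, against 52.0%. The Stat-type motif was present in 1 of 7 and in 7.0% of all windows. The 7 windows were 59.2% to 78.4% G and C, against a median of 52.4% over all windows, and a GC-rich window holds GC boxes more often. GC boxes stood in the windows of Klf2, Klf3 and Klf4, which fell, and in those of Klf6, Klf7 and Klf13, which rose. The window of Klf9, which fell, held none. Any link of these motifs to the direction of change was not tested.

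Replicate arrays were close, with a median SD per gene of 0.066 at day 3 and 0.072 at day 0 on the log2 scale. Markers of the labelled cells were present. The counts of called markers below stand beside 20.9% of all genes called higher at day 3 and 21.4% called lower. Of 6 epiblast markers, 4 rose, 1 fell (Sox2, -0.64) and 1 was not called (Pou5f1, the Oct4 gene). Of 5 ES cell markers 4 fell, Sox2 among them, and Pou5f1 was not called; both genes stand in both lists. Markers of visceral endoderm, an extra-embryonic tissue, rose for 14 of 15 genes, all but Gata6 (-0.25, not called). Their summed level was 14.49 and 14.64 on the log2 scale at day 3, against 11.29 and 11.42 at day 0, and none of the 15 lay below the arrays' first quartile on either day. The summed level of 9 fibroblast markers was 9.19 and 9.20 at day 3 and 8.32 and 8.34 at day 0, with 4 of the 9 below the first quartile. Of these 9, 3 rose, Thy1 by 1.82 as the largest, and 6 were not called, with a median difference of 0.07. That of 7 markers of blood and endothelium, where Klf2 and Klf4 are also known to act, was 7.93 and 7.96 at day 3 and 8.98 and 9.03 at day 0. Of these 7, 2 fell, Pecam1 (-2.62) and Tek (-0.70), and 5 were not called, with a median of -0.07. Pecam1 was the brightest of the 7 at day 0, at 8.20 and 8.29, and weighed most in that day's sum. The part of these cell types in the Klf values was not tested.

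Setting day 3 against day 0 asks how expression in epiblast-like tissue differs from that in the starting ES cells. Of the Klf genes, 6 fell, Klf4, Klf5, Klf2, Klf3, Klf9 and Klf10, and 3 rose, Klf6, Klf7 and Klf13, while Klf16 did not pass the test. Falls reached 13.9-fold and rises 2.01-fold. Differences are day 3 minus day 0 of log2 values, and a gene was called at a Benjamini-Hochberg adjusted p under 0.05 from limma, fitted over all genes. Among all 18193 genes 42.3% were called, 20.9% higher and 21.4% lower at day 3. All 10 Klf genes lay above the median level of all genes, and among the 9096 genes above that level, tested alone, 65.9% were called, so 9 calls in 10 are to be read against that share. Called lower by at least 2-fold were 4 of the 10 Klf genes, against 4.25% of all genes, and 3 of them by at least 4-fold, against 1.08%. When all probe sets of a gene were averaged, these counts were 3 and 2. Klf6 was called higher by at least 2-fold, against 5.93% of all genes. These shares by size are over genes of every level, dim ones included. For 9 of the 10 genes the day 3 and day 0 arrays were fully separated, 6 lower and 3 higher at day 3, against 33.7% and 35.3% of all genes. The median difference of the 10 genes was -0.53 and that of all genes 0.01.

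**Figure D1:**
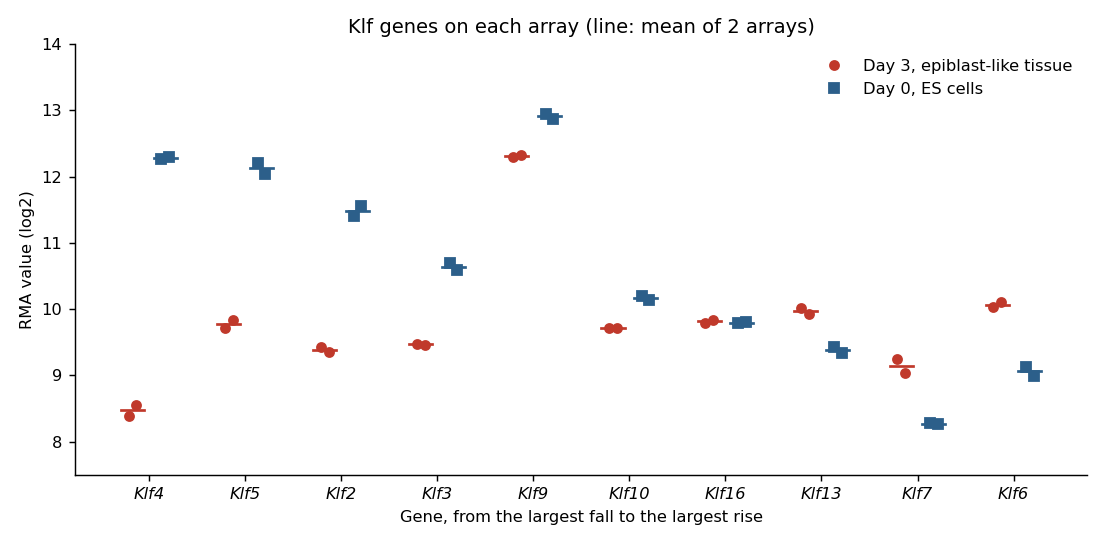
RMA value (log2) of each Klf gene on each array, with day 3 (red circles) left of day 0 (blue squares) and a line at the mean of 2 arrays. Genes run from Klf4, at 8.48 on day 3 and 12.27 on day 0, to Klf6, at 10.06 and 9.06, and heights of different genes are not comparable because probe sets differ in brightness.

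The naive network members of the family fell most. Klf4, a target of LIF and Stat3 signalling and a factor used to reprogram somatic cells, had log2 values of 8.39 and 8.56 at day 3, against 12.26 and 12.29 at day 0. Both day 3 arrays lay far below both day 0 arrays. The difference was -3.80 ± 0.07 (SE of the fit; 95% interval -3.96 to -3.63; limma adjusted p = 1.5e-10), a 13.9-fold fall that ranked as the 21st largest fall of all genes. Its second probe set was at 7.70 and 7.79 at day 3 and at 11.47 and 11.41 at day 0, a difference of -3.70, so that both probe sets gave nearly the same size.

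Klf5, which also acts in the trophectoderm and inner cell mass of the blastocyst, was at 9.72 and 9.83 at day 3, against 12.21 and 12.04 at day 0. The arrays did not overlap, and the difference was -2.35 ± 0.07 (SE; limma adjusted p = 3.1e-09), a 5.09-fold fall. A dimmer probe set fell by 1.51, with 5.74 and 6.23 at day 3 and 7.58 and 7.41 at day 0. The third probe set lay below the first quartile of the arrays on both days, at 3.42 and 3.22 at day 3 and 3.46 and 3.12 at day 0, where no fall could be seen. From the mean of its 3 probe sets the Klf5 difference was -1.28.

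Klf2, known in ES cells as a protein that Mek inhibition stabilises and elsewhere as a flow-responsive factor of endothelium, has 1 probe set on the array. It was at 9.43 and 9.35 at day 3, against 11.41 and 11.56 at day 0. The difference was -2.09 ± 0.07 (SE; limma adjusted p = 5.6e-09), a 4.26-fold fall with no overlap of the arrays. The 95% intervals of Klf2 (-2.25 to -1.93) and Klf5 (-2.51 to -2.19) overlapped, while that of Klf4 stood apart from both.

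The activator genes Klf6 and Klf7 went the other way. Klf6, a widely expressed factor first described as an early response gene, was at 10.03 and 10.10 at day 3, against 9.13 and 8.99 at day 0. All 4 arrays were separated by day, and the difference was 1.01 ± 0.08 (SE; limma adjusted p = 1.8e-06). This lies just above a 2-fold change, with a 95% interval of 0.83 to 1.18. All 5 Klf6 probe sets rose, by 0.73 to 1.10, over mean levels of 5.34 to 9.56.

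Klf7, which has a known role in neuronal morphogenesis, was at 9.24 and 9.04 at day 3 and at 8.28 and 8.26 at day 0. Its difference was 0.87 ± 0.09 (SE; limma adjusted p = 1.8e-05), just below 2-fold. The gene was represented by its brightest probe set, and of the other 3 a pair rose more, by 1.30 and 1.23, and one rose less, by 0.71. From the mean of the 4 probe sets the rise was 1.03, above that of Klf6.

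Klf3, the CtBP-binding repressor, was at 9.48 and 9.46 at day 3, against 10.69 and 10.59 at day 0. The difference was -1.17 ± 0.07 (SE; limma adjusted p = 2.3e-07), a 2.25-fold fall. It has 7 probe sets, of which 6 fell, by 0.44 to 1.20. The remaining one was at 5.47 and 5.69 at day 3 and 5.28 and 5.50 at day 0, a difference of 0.19 with overlapping arrays that was not called (adjusted p = 0.39 over all probe sets in limma). The 3 brightest probe sets had differences of -1.17, -1.20 and -1.13, and the 4 dimmer ones fell by less or were not called. The mean of all 7 gave -0.75.

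Among the members of the Sin3a-binding branch 2 fell, 1 rose and 1 was not called. These counts are to be read against the 65.9% called among genes above the median level. Klf9, induced by glucocorticoid and thyroid hormones in other tissues, was at 12.30 and 12.32 at day 3, against 12.95 and 12.87 at day 0, and fell by 0.61 ± 0.05 (SE; limma adjusted p = 4e-06). Its 7 probe sets all fell, by 0.36 to 0.94. The 3 brightest, with mean levels above 12 on the log2 scale, had differences of -0.72 to -0.61, smaller than the -0.94 and -0.88 of a pair of middle brightness, and the 2 dimmest had -0.36 and -0.37 and passed the test narrowly (adjusted p = 0.04 and 0.046 over all probe sets in limma).

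Klf10, a gene known to be induced early by TGF-beta, was at 9.72 and 9.71 at day 3, against 10.20 and 10.13 at day 0, a fall of 0.45 ± 0.07 (SE; limma adjusted p = 0.00026). Klf13, described in lymphocytes as an activator of a chemokine gene, was at 10.01 and 9.93 at day 3, against 9.43 and 9.34 at day 0, and rose by 0.58 ± 0.07 (SE; limma adjusted p = 7.1e-05). A second Klf13 probe set rose by 0.35, and the third, below the arrays' median level, at 5.43 and 5.38 at day 3 and 5.31 and 5.39 at day 0, was not called. The mean of the 3 gave 0.33. Klf16 was at 9.79 and 9.84 at day 3 and at 9.79 and 9.80 at day 0. Its difference of 0.02 ± 0.07 (SE; limma adjusted p = 0.87) had a 95% interval of -0.13 to 0.17, which leaves small changes within these bounds possible.

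Counted by probe set, 11 of the 34 were called higher and 19 lower, while 4 were not called. Of the 45037 probe sets of the array that are not controls, 14.2% were called higher and 16.7% lower. Those 45037 include dim probe sets and ones without a symbol, while 1 of the 34 lay below the arrays' first quartile. The shares were not matched for level. All 30 called probe sets had arrays that did not overlap between days. The share of such separation among all probe sets was not computed. Calls and separation come from the same arrays, so this count is not separate evidence. No gene had probe sets called in opposite directions. The 4 not called were the only probe set of Klf16, the dimmest of Klf5, the dimmest of Klf13 and the second dimmest of Klf3. Probe sets of one gene share its RNA and are not replicates.

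**Figure D2:**
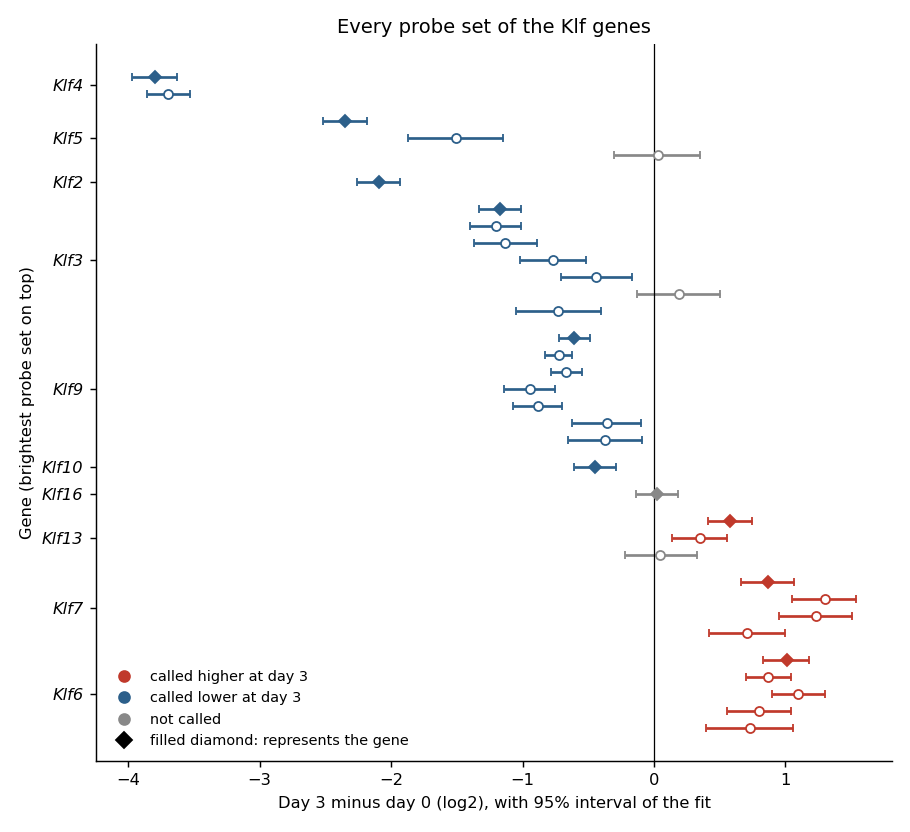
Difference of each of the 34 probe sets, day 3 minus day 0 on the log2 scale with the 95% interval of the fit over all probe sets, grouped by gene with the brightest probe set on top. Filled diamonds mark the probe set that represents the gene, and the sets of Klf6 and Klf7 lie between 0.71 and 1.30 while those of Klf9 lie between -0.94 and -0.36.

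In order of their differences the genes ran Klf4, Klf5, Klf2, Klf3, Klf9, Klf10, Klf16, Klf13, Klf7 and Klf6. The gap was 1.45 between Klf4 and Klf5 and 0.93 between Klf2 and Klf3. Neighbours whose 95% intervals overlapped were Klf5 and Klf2 (gap 0.26, combined SE 0.10), Klf9 and Klf10 (0.15, 0.084), Klf13 and Klf7 (0.28, 0.11) and Klf7 and Klf6 (0.14, 0.12), and these gaps were not tested. When all probe sets of a gene were averaged, the fall of Klf5 (-1.28) was smaller than that of Klf2 and the rise of Klf7 (1.03) larger than that of Klf6 (0.90). Among the differences of all genes Klf4 lay at percentile 0.115, Klf5 at 0.753, Klf2 at 0.951, Klf3 at 3.35 and Klf6 at 94.1. The network members were thus farther out in the distribution than the Klf genes that rose.

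**Figure D3:**
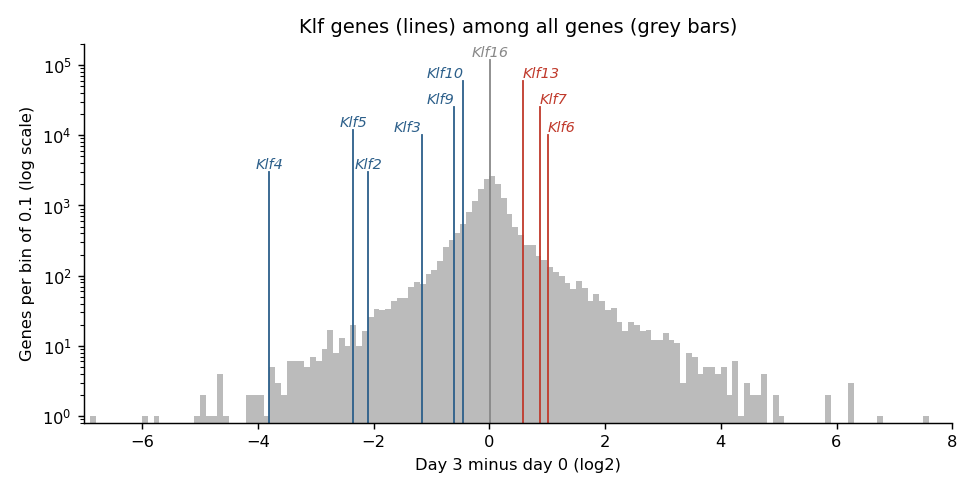
Number of genes in bins of 0.1 of the difference, day 3 minus day 0 on the log2 scale (grey bars, log axis), with a labelled line at each Klf gene. Line heights only separate the labels; Klf4, Klf5 and Klf2, between -3.80 and -2.09, lie in the sparse lower tail, and Klf6 at 1.01 ranks 1074th among the rises.

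The genes most like Klf4 over the 4 arrays, by the root mean square difference of values centred on each gene's mean, were D1Pas1 (0.0411), Pcolce (0.0465) and Gm21283 (0.051). Pcolce, which encodes an enhancer of procollagen processing, fell by 3.76, with 7.43 and 7.57 at day 3 and 11.30 and 11.21 at day 0. The genes most like Klf6 were Eef1akmt2 (0.0187), Rtn4rl2 (0.0213) and Slc27a2 (0.0272). Slc27a2, a fatty acid transport gene, rose by 1.03, with 10.20 and 10.26 at day 3 and 9.30 and 9.09 at day 0. With 2 arrays a day, likeness rests on the size of the difference and on the small gap between replicates.

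Relatives of the family had differences of at most 0.53 in size. Of 6 other Klf genes measured, 1 rose, 1 fell and 4 were not called, with differences from -0.46 to 0.53 and a median of -0.12. Among all genes 20.9% were called higher and 21.4% lower. Klf15 rose by 0.53, with 8.40 and 8.55 at day 3 against 7.94 and 7.96 at day 0. Klf11, a Sin3a-binding relative of Klf10, fell by 0.46, close to the 0.45 of Klf10. Klf17 had a difference of -0.26 that was not called, although 1 of its 3 probe sets fell by 0.65. Of 7 Sp genes, whose proteins carry the same kind of zinc fingers, 1 rose (Sp6, 0.53), 2 fell (Sp3, -0.25, and Sp1, -0.23) and 4 were not called, with a median of -0.02. By at least 2-fold, 4.25% of all genes were called lower and 5.93% higher. None of these 13 relatives was called with a 2-fold change, which is close to those shares. Of the 10 Klf genes described here 5 were, but that set was assembled with results of these arrays known. The sets also differ in level. All 10 Klf genes described here lay above the median level of all genes. Some relatives were dim, such as Sp8, at a mean of 4.07 at day 3 and 4.05 at day 0, below the arrays' first quartile.

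Partners of Klf2, Klf4 and Klf5 in the naive network fell with them. Of 12 measured, 11 fell, 0 rose and 1, Pou5f1, was not called, with a median of -2.88, against 21.4% of all genes called lower. Prdm14, a transcriptional regulator of the naive state, was at 4.93 and 4.86 at day 3, against 9.55 and 9.91 at day 0, a difference of -4.84. Gbx2 had -4.64, and Tfcp2l1 had -3.33 with 1 of its 3 probe sets called. The -3.80 of Klf4 was exceeded in this list by Prdm14 and Gbx2 only, and 9 of the 12 partners fell at least 4-fold, against 1.08% of all genes. Of 9 genes reported as bound or regulated by Klf factors in mouse ES cells, 7 fell, 1 rose and 1 was not called, with a median of -1.29, against the same share of 21.4% lower among all genes. Esrrb (-3.04), Fbxo15 (-3.03) and Nanog (-2.72) changed most, and Mycn rose by 0.47. The lists share 4 genes, Nanog, Esrrb, Pou5f1 and Sox2.

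Known pathways lie upstream of members of the family, and their counts, which were not compared by a test, stand beside 20.9% of all genes called higher and 21.4% called lower. In the LIF and Stat3 pathway, which maintains Klf4 and Klf5 in ES cells, 7 of 10 genes fell, 1 rose and 2 were not called, with a median of -0.82. The 7 include Jak1, with 0 of 3 probe sets called in the fit over all probe sets, and Tyk2, with 1 of 2. Socs3, a feedback inhibitor, was at 6.13 and 6.03 at day 3, against 11.98 and 11.99 at day 0. The receptor gene Lifr fell by 2.06 with 2 of 3 probe sets called, and Stat3 itself by 1.94 with 3 of 4. In the Mek5, Erk5 and Mef2 pathway, which induces Klf2 in endothelium, 3 of 7 rose, 0 fell and 4 were not called, with a median of 0.08. Mef2a rose by 0.90 (4 of 6 probe sets called), the kinase gene Map2k5 by 0.83 (2 of 4) and Mef2d by 0.41 (1 of 3), while Klf2 fell. In the TGF-beta pathway, known to induce Klf10, 5 of 9 rose, 3 fell and 1 was not called, with a median of 0.54. The inhibitory Smad7 fell by 1.63, Skil rose by 1.47, and Smad3 rose by 0.58 with 1 of 3 probe sets called.

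Genes of proteins that work with Kruppel-like factors were called in both directions. Of 12 co-repressors and co-activators measured, 4 rose, 4 fell and 4 were not called, with a median of -0.07, a share of calls close to the 65.9% among genes above the median level. The acetyltransferase gene Kat2b fell most, by 1.46, and all 3 of its probe sets fell. Ctbp1, the co-repressor gene for partners such as Klf3, rose by 0.52, and Sin3b by 0.42 with 3 of 5 probe sets called. Sin3a had a difference of -0.24 (limma adjusted p = 0.014). Of 7 ubiquitin ligase genes known to act on Klf proteins, 1 rose, 3 fell and 3 were not called, with a median of -0.27. Among all genes 20.9% were called higher and 21.4% lower. Wwp1, counted as fallen, had 1 of its 3 probe sets called lower and 1 called higher in the fit over all probe sets. Smurf2 rose by 0.54, Fbxo22 fell by 0.40 and Itch fell by 0.32, with 2 of the 4 Itch probe sets called. Arrays measure RNA, so amounts of Klf protein were not measured.

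**Figure D4:**
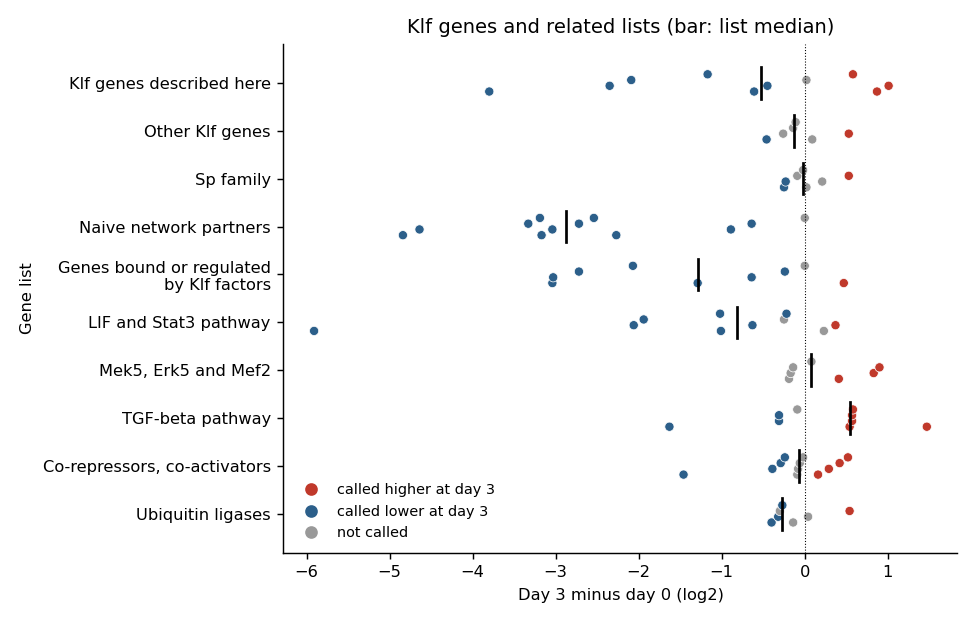
Difference of each gene, day 3 minus day 0 on the log2 scale, in the Klf genes described here and 9 related lists, with a bar at each list's median and colour for the call. The naive network partners (median -2.88) lie lowest, and the Klf genes (median -0.53) spread from -3.80 to 1.01.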

How the data were processed

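RNA from 4 samples, 2 of day 3 and 2 of day 0, was hybridized to Affymetrix arrays with a biotin label, per the labels' protocols. The authors deposited log2 values, 1 per probe set and array, made with RMA and R 2.13.0 per the submitters' processing notes; RMA makes the arrays' distributions alike, so a change in total RNA per cell could not be seen. The sources used here give no genome build. The quartiles of the 4 arrays were close (medians 5.78 to 5.79), and no detection calls were used. The number of arrays limits the precision.

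Of 45101 probe sets, 64 were controls, 34958 had 1 symbol, 932 several and 9211 none, the controls among the last. Identifiers of 34754 were matched to RefSeq and 0 symbols were updated. The limma package 3.58.1 in R 4.3.3 gave the differences (lmFit and eBayes with an intensity trend, no covariate, 2 residual and about 8.02 prior degrees of freedom), two-sided, with Benjamini-Hochberg adjustment over all 18193 genes, and in a second fit over all probe sets. On data simulated for this comparison over 18193 genes, 74% of 50 genes changed by 0.5 and all of 50 each changed by 1, 2 and 3 were recovered. In that simulation 17993 genes were unchanged, whereas 42.3% of genes were called in the data. Its noise was drawn from the fitted variance, which may be technical. The recovered shares need not hold for the data themselves.

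The 10 genes and the 9 related gene lists were chosen with earlier results of these data known, so no list was tested. Named were all 10 genes with their probe sets, and the 3 genes nearest to the largest fall and rise. From each list the 3 genes that differed most were named. Other genes of the lists (Pou5f1, Mycn, Sin3a, Jak1, Tyk2, Wwp1 and Sp8) and the named markers were chosen after their values were seen. Motifs were sought in RefSeq promoter windows. The alternatives were other variance models, normalizations, filters, choices of probe set and thresholds, and leaving out each array.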

Additional observations from a re-analysis of the deposited data

How the results depend on the processing

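The 9 calls among the Klf genes, and the missing call of Klf16, were the same in all 12 alternatives computed for single genes (no intensity trend, robust variance, renewed quantile normalization, median centring, genes above the median level, mean of a gene's probe sets, no probe sets ending in _s_at or _x_at, the replicate block and each array left out). With the replicate number as a block, 3 Klf genes were higher and 6 lower, as without it, and 3789 and 3871 of all genes. Deviations of same-numbered arrays had a correlation of -0.017 across genes, so no effect shared by same-numbered arrays was seen. With 2 arrays a day this cannot tell whether same-numbered samples were handled together, which the labels do not state. With 1 array left out the counts stayed at 3 and 6, those of all genes ran from 2890 to 3729 higher and from 2923 to 3742 lower, and the median Klf difference from -0.56 to -0.49; a day left with 1 array is assumed to vary like the other. Over the alternatives Klf6 (0.90 to 1.08), Klf7 (0.77 to 1.03) and Klf3 (-1.22 to -0.75) lay on either side of a 2-fold change and Klf5 (-2.43 to -1.28) on either side of a 4-fold change. With a gene's probe sets averaged, 3 Klf genes were lower by at least 2-fold and 2 by at least 4-fold. Without day 0 replicate 2 or without day 3 replicate 2, 0 Klf genes were higher by at least 2-fold, against 1 (Klf6) with all arrays. Tested against a log2 difference of 1, 0 Klf genes were higher and 3 lower, against 664 and 472 of all genes, a stricter hypothesis. With every probe set tested, 11 Klf probe sets were higher and 19 lower, of 6409 and 7522 in all, because more features were counted. Levels near or below the first quartile, such as that of the third Klf5 probe set, are not separated from background.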
